A study of Mus musculus with 72 samples.

Results

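The expression of 9 genes of oxygen sensing and of vascular endothelial growth factor (VEGF) signaling was examined in adult mouse hearts. They were the transcription factor subunits Hif1a and Epas1, the oxygen-dependent prolyl hydroxylases Egln1 and Egln3, the ligands Vegfa, Vegfb and Vegfc, and the receptors Flt1 and Kdr. The genes were chosen by name, as rows of the deposited table of RNA-seq read counts. All 9 were found among its 24237 genes, and all 9 had reads in every one of the 72 libraries, with a lowest count of 58.

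When oxygen is plentiful, the hydroxylases encoded by Egln1 and Egln3 mark the alpha subunits of the hypoxia-inducible factors (HIF), encoded by Hif1a and Epas1, for destruction. When oxygen is scarce the alpha subunits accumulate, pair with the protein encoded by Arnt and switch on genes of glycolysis and vessel growth, among them Vegfa and Egln3. The aryl hydrocarbon receptor (AHR) pairs with the same Arnt protein. Because the alpha subunits are controlled largely as proteins, the level of their RNA does not by itself give the activity of the pathway. VEGF proteins secreted by heart muscle and other cells act on receptors of endothelial cells, the cells that line vessels.

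Hearts came from C57BL/6J mice of 4 groups, and each group gave 3 libraries per sex for the right atrium (RA), the left atrium (LA) and the ventricles (V). Naïve mice were Ahr+/+ and marked as controls, and by the methods of the study their dams were gavaged with corn oil, the vehicle. Ahr-/- mice lacked the receptor in every cell and were born to Ahr-/- dams, so that mother and offspring both lacked it. Those dams received no gavage by the methods, and its part and that of genotype cannot be told apart in the comparison with naïve mice. The other groups were Ahr+/+ mice whose dams were gavaged with low- or high-dose the dioxin TCDD, which binds and activates the receptor, at 0.1 or 1 μg/kg on 3 days of gestation, so that the hearts were sampled long after exposure. The labels write the doses as 100 and 1000 with no unit. TCDD is named in the labels of every sample, also of naïve and Ahr-/- mice. The labels give an age of 9 months and place the gavages at embryonic day 13.5, at 15.5 and finally at 18.5, where the methods of the study give 10 months and earlier days. The compartments were dissected from the same hearts, and the labels do not link the libraries of a heart, so that values of different compartments are not independent.

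The labels call the cell type cardiomyocytes, but the samples were pieces of tissue. The summed level of 12 endothelial markers was 790 to 1761 CPM (counts scaled to a common library size) over the 72 libraries, and no marker of that list was at 0 throughout. In such bulk samples, fewer cells of a type and less RNA per cell cannot be told apart. Library totals ran from 11873417 to 28789382 reads on genes, with a median of 19231739. Levels below are CPM after scaling by the trimmed mean of M values (TMM) over all 72 libraries, with mean ± SD.

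Some libraries went against their labels. By sex-linked genes, 8 libraries read as the other sex. By Myl4, a light chain of atrial muscle, 8 of the 48 atrial libraries read like ventricle, with at most 48.7 CPM against at least 620.5 CPM in the other 40. In the same way, 5 of the 24 ventricle libraries had 675.4 to 3533.2 CPM, against at most 193.4 CPM in the others. Together these were 17 libraries, 4 of them against both labels, and 12 of the 17 were among the 24 libraries numbered 49 to 72. None was a library of female ventricle. The 12 numbered 49 to 72 fell in the same places in all 4 groups. Those of female right atrium (50, 56, 62 and 68) read as male, and those of male left atrium (51, 57, 63 and 69) like ventricle. Those of male ventricle (53, 59, 65 and 71) read as female and like atrium. How this arose was not tested. Values are given by label. For comparisons with naïve mice and between compartments the values without the 17 libraries are given beside the differences that rest on them. Against naïve, the fit without them takes all 4 groups of a sex and compartment together, and a group left with 1 library is assumed to vary like the others. Such groups were naïve and high-dose right atrium of females, Ahr-/- left atrium of females and low-dose male ventricle. Myl2, a ventricular marker, was not used to set libraries aside. It ran from 8 to 5532.6 CPM in the other 40 atrial libraries. In the ventricle libraries that match their labels it ran from 2734.3 to 10905.2 CPM. The share of ventricular tissue in those 40 was not tested.

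Levels were first compared between the genes in the 6 naïve ventricle libraries, as CPM per kilobase of coding sequence, since reads had been counted on coding regions. Vegfb, a ligand of Flt1 that is abundant in heart muscle, stood highest at 619 ± 139 (SD, n = 6). Egln1, the main oxygen-sensing hydroxylase of most cells, followed at 536 ± 113, and the order of these 2 genes held in only 4 of the 6 libraries. Epas1, a HIF subunit typical of endothelium, stood at 253 ± 50.9, below Egln1 in 6 of 6 libraries and with no overlap. Vegfa, the leading growth signal for vessels, had 162 ± 43.5 and Egln3, a hydroxylase that is itself induced by low oxygen, 121 ± 47.2, and their ranges overlapped. Hif1a, Kdr and Flt1 lay close together at 53.9 ± 15.8, 49.1 ± 12.1 and 42.8 ± 16 CPM per kilobase, and no neighbors among them were apart. Vegfc, the ligand of lymphatic vessels, was far below them at 5.67 ± 1.16, under Flt1 in 6 of 6 libraries. The order of the 9 genes was the same per kilobase of all exons in naïve ventricle. Per kilobase of coding sequence it was also the same in naïve right and left atrium, and in ventricle without library 53, which is against its labels. Per kilobase of exons in naïve right atrium Kdr (17.5) stood just above Hif1a (17.3). Over all 72 libraries Kdr also stood above Hif1a, at 45.3 against 35.5 CPM per kilobase of coding sequence. Over all 72 libraries Egln3 varied most, with 13.4 to 195 CPM and a highest value 14.6 times the lowest, and Epas1 least, with 343 to 844 CPM and a ratio of 2.46. The others ran from 46.7 to 193 CPM for Hif1a, 247 to 1030 for Egln1, 85.8 to 266 for Vegfa, 174 to 910 for Vegfb, 3.08 to 12 for Vegfc, 53.8 to 284 for Flt1 and 69.8 to 292 for Kdr.

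**Figure D1:**
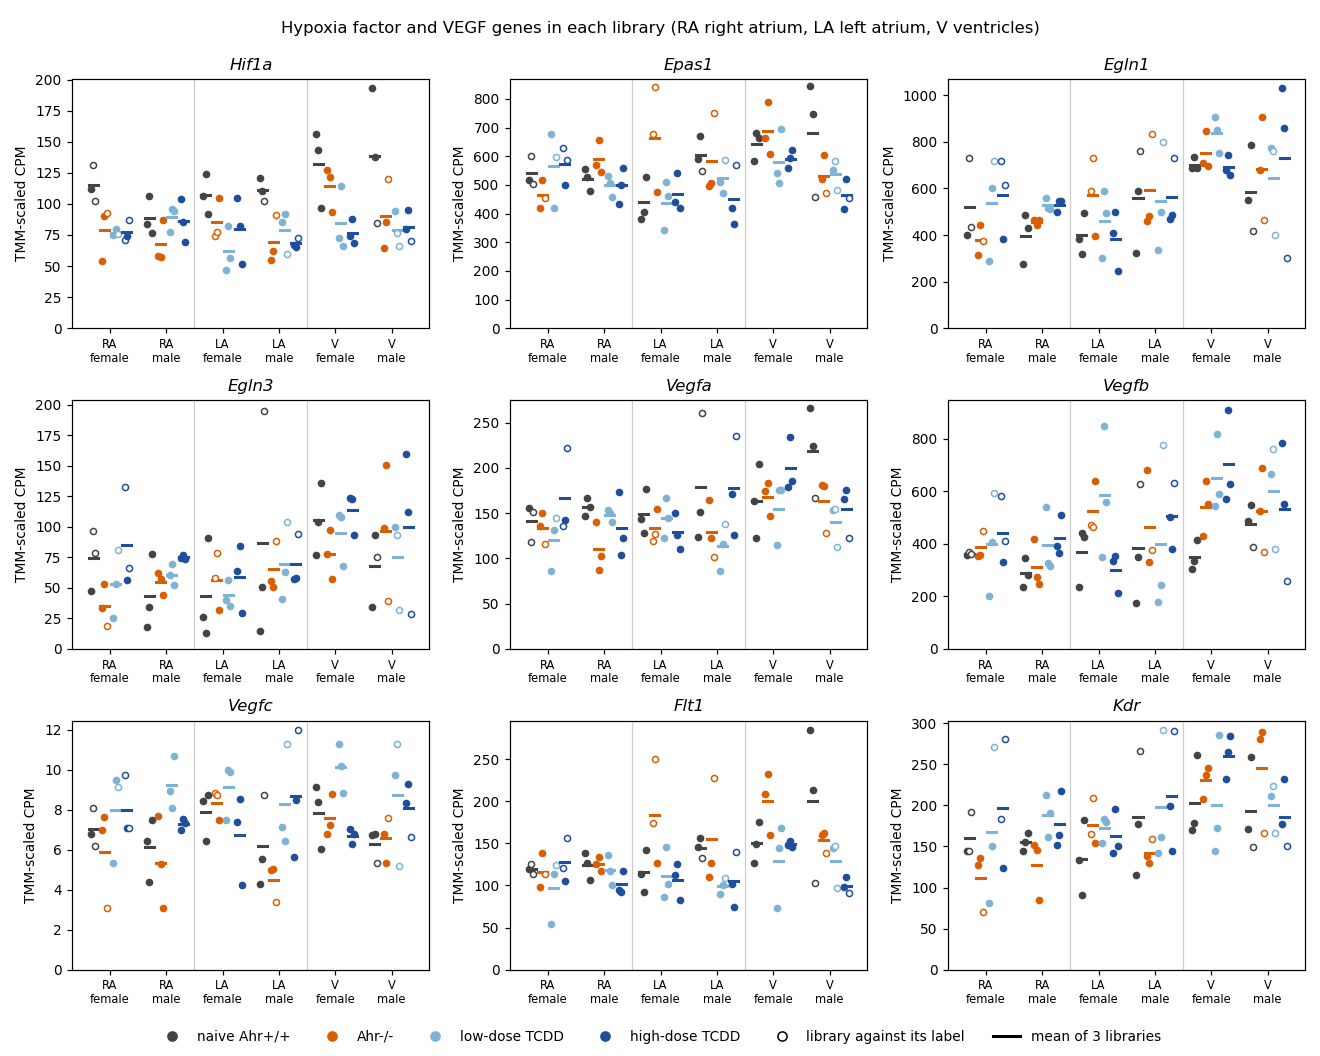
Level of each of the 9 genes in TMM-scaled CPM (vertical axis from 0) in every library, by compartment and sex (horizontal axis) and by group (color). Points are single libraries, bars are means of 3 libraries, and open points are the 17 libraries against their labels; Hif1a in female ventricle is at 68.7 to 87.8 CPM in the high-dose libraries and at 96.4 to 156 CPM in the naïve ones.

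Every Ahr-/- or TCDD-exposed group was then compared with the naïve group of its sex and compartment, 3 libraries against 3, to ask which genes differed in adult hearts after loss of the receptor or exposure to its ligand before birth. A gene counted as called where the Benjamini-Hochberg adjusted p, over all genes tested with the quasi-likelihood method of edgeR, was under 0.05. Of the 18 comparisons, 1 called any of the 9 genes, that of high-dose female ventricle. There Hif1a was 1.66-fold lower and Vegfb 2.06-fold higher than in naïve females, which is 2 of 9 genes. The share of all genes called in this comparison was 23.7%, or 3313 of 14006, so that 2 of 9 is close to that background.

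Hif1a (Entrez 15251, chromosome 12, from 73901324 to 73947554 of GRCm38.p6) encodes the alpha subunit found in nearly all cells. In naïve female ventricle it was read at 156, 143 and 96.4 CPM in libraries 35, 36 and 54. In high-dose female ventricle the values were 74.2, 87.8 and 68.7 CPM in libraries 43, 44 and 66. Every exposed library lay below every naïve one, and naïve library 54 was the nearest to them. The means were 132 ± 31.3 and 76.9 ± 9.82 (SD, n = 3), with a log2 fold change of -0.73 (SE 0.168, adjusted p = 0.00884 from edgeR). The call was lost with all 4 groups of female ventricle in one fit (adjusted p = 0.0683) and without naïve library 35 (-0.61, adjusted p = 0.0508). That library had the highest Myl4 of the ventricle libraries that match their labels, 193.4 CPM, against 2.51 to 22.06 CPM in the other 5 of this comparison, and the part of atrial tissue in its Hif1a level was not tested.

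Vegfb (Entrez 22340, chromosome 19, from 6982472 to 6987651) had 303, 333 and 414 CPM in naïve female ventricle, in the same order of libraries. The high-dose values were 571, 910 and 628 CPM, and the groups did not overlap. The means were 350 ± 57.5 and 703 ± 181 (SD, n = 3), and the log2 fold change was 1.04 (SE 0.182, adjusted p = 0.00242 from edgeR). It stayed called with all 4 groups in one fit (adjusted p = 0.0311) and without any 1 of the 6 libraries (adjusted p from 0.00289 to 0.0144). With males and females in one fit it was 0.59 (adjusted p = 0.16).

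Base composition moved with both results. Transcripts of Hif1a have 41.3% G and C, a content higher than that of 10.1% of 13340 genes tested, and those of Vegfb 62.6%, higher than that of 98.9%. Vegfb transcripts are also short, with 1281 bases, at the 7.63 percentile of those genes. In high-dose female ventricle the median log2 fold change ran from -0.39 in the fifth of genes with the lowest GC content to 0.35 in the fifth with the highest. After removal of a trend with GC content from each library, an alternative chosen after the data were seen, neither gene was called. Hif1a was then -0.37 (adjusted p = 0.124) and Vegfb 0.69 (adjusted p = 0.0604), in the same directions as before. Over all genes the share called was then 13.8%. After removal of a trend with transcript length both were called, at -0.66 (adjusted p = 0.0117) and 0.88 (adjusted p = 0.00409). The part of GC content in these differences was not tested beyond this.

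**Figure D2:**
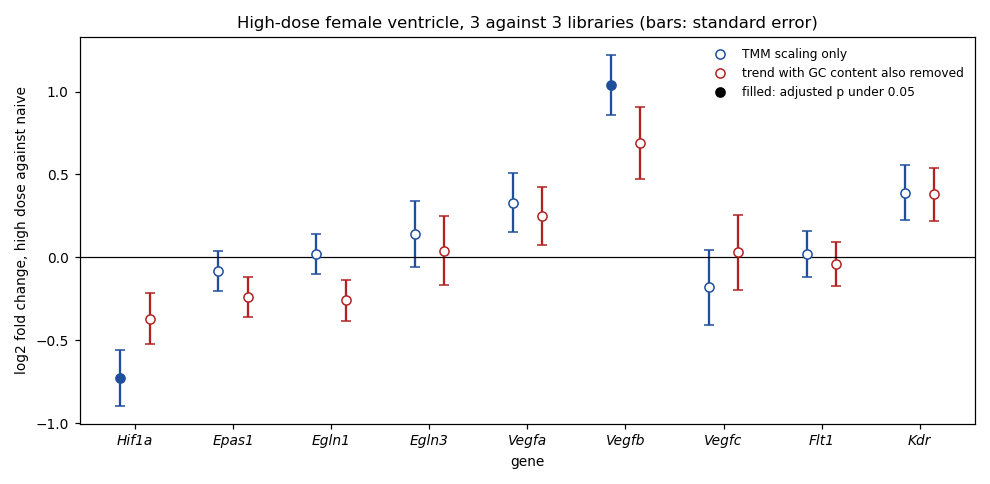
Log2 fold change of each gene in high-dose against naïve female ventricle (vertical axis), with TMM scaling only (blue) and with the trend with GC content also removed (red); bars are standard errors and filled points have an adjusted p under 0.05. Hif1a and Vegfb move toward 0, from -0.73 to -0.37 and from 1.04 to 0.69, and Kdr stays at 0.39 and 0.38.

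The other 7 genes were not called in high-dose female ventricle. Kdr, the receptor that carries most of the growth signal of VEGF, had 170, 179 and 261 CPM in naïve libraries 35, 36 and 54 and 232, 265 and 284 CPM in high-dose libraries 43, 44 and 66, with overlap through naïve library 54. Its log2 fold change was 0.39 (SE 0.166, adjusted p = 0.106). Without naïve library 54 it was 0.63 (adjusted p = 0.00946), and it was also called with a term for library series (0.42, adjusted p = 0.0368), with libraries 1 to 48 only (0.56, adjusted p = 0.0262) and with the trend with transcript length removed (0.53, adjusted p = 0.0382). Vegfa had 163, 122 and 204 CPM in naïve and 179, 234 and 186 CPM in high-dose libraries, and it was called only without naïve library 54 (0.54, adjusted p = 0.0414). Epas1, Egln1, Egln3, Vegfc and Flt1 had log2 fold changes of -0.08, 0.02, 0.14, -0.18 and 0.02.

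The regulatory sequence at a start site of 4 genes is given here because the HIF and AHR complexes both bind short core motifs in promoters, ACGTG or GCGTG for HIF and GCGTG for AHR. Hif1a and Vegfb are the genes called above, and Egln1 and Egln3 are the hydroxylases, known as targets of HIF. Each run is the RefSeq window (GRCm38.p6) of 250 bases before to 50 after a start site, 5′ to 3′ on the strand of the gene, with every ACGTG or GCGTG on either strand in capitals (CACGT and CACGC are the same motifs on the other strand).
Hif1a, chr12:73907617-73907916, plus strand: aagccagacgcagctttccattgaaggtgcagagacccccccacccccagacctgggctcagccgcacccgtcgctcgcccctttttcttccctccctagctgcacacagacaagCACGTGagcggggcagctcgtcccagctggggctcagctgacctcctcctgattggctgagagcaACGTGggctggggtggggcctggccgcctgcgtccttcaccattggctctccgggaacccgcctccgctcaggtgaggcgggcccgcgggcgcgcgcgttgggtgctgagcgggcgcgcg
Vegfb, chr19:6987602-6987901, minus strand: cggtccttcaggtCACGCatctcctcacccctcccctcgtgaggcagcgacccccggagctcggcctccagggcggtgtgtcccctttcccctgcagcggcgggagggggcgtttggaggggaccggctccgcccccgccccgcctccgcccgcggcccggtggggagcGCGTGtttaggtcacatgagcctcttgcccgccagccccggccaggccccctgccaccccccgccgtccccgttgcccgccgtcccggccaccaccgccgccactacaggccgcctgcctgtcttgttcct
Egln1, chr8:124949205-124949504, minus strand: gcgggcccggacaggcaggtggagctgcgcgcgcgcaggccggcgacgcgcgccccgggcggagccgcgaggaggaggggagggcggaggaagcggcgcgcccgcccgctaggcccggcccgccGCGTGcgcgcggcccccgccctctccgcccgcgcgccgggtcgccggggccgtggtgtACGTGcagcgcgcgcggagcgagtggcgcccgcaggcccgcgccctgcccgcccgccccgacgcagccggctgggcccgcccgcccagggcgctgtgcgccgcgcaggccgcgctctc
Egln3, chr12:54203825-54204124, minus strand: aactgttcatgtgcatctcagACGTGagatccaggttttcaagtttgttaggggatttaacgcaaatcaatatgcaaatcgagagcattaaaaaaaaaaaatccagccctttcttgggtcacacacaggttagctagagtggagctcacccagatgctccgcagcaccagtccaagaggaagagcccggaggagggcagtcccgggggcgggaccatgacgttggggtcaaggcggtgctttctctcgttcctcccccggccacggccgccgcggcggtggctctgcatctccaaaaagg

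The window of Hif1a holds ACGTG 3 times, of which 2 overlap in a palindrome 135 bases before the start and the other lies 70 bases before it, and no GCGTG. This window, from 73907617, lies inside the span of the gene, which begins at 73901324, and so is not at its 5′ end. The window of Vegfb holds GCGTG 2 times, 237 and 81 bases before the start, and no ACGTG. Egln1 holds each motif 1 time, and Egln3 holds ACGTG 1 time, 229 bases before the start. The 8 genes that have a window in the table have 9 windows, since Vegfa has 2. Of these windows 4 hold ACGTG, 5 hold GCGTG and 7 hold at least 1 of them. Both motifs of Vegfa lie in its window at 46025114 to 46025413, and its window at the 5′ end of the gene holds neither. The GCGTG motif was present 2 times in the window of Kdr and 1 time in that of Flt1, and neither was present in that of Vegfc. Among all 32851 windows of the table, 19.6% hold ACGTG, 32.4% hold GCGTG and 43.8% hold at least 1 of them. The matches are descriptions of the letters only, and no binding was measured. Epas1 had no window.

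Hif1a was then followed through all 18 comparisons. Its log2 fold change was below 0 in 17 of them, with a median of -0.55 and a range from -0.84 to 0.01, and 9 of the 17 had an unadjusted p under 0.05 (for all genes this share was 1.6% to 36.5%, given by comparison below). In each sex and compartment the lowest naïve value of Hif1a was that of the library numbered 49 or above. Comparisons within a sex and compartment share their naïve libraries, so that these counts do not come from 18 separate experiments. Outside high-dose female ventricle none was called in edgeR (adjusted p from 0.175 to 0.974 over the other 8 with an unadjusted p under 0.05), and DESeq2 called none of them either. In naïve left atrium of males Hif1a had 121, 110 and 102 CPM in libraries 17, 18 and 51, against 55, 62.1 and 91.1 CPM in Ahr-/- libraries 21, 22 and 57 and 66.7, 65.4 and 72.4 CPM in high-dose libraries 25, 26 and 63, with no overlap with either. The log2 fold changes there were -0.70 and -0.69, and -0.99 and -0.82 without the libraries against their labels, which include 51, 57 and 63. Low-dose left atrium of females had 46.7, 82.5 and 56.5 CPM against 106, 124 and 92.1 CPM in naïve ones (-0.78), again without overlap. In right atrium of females low dose (74.9 to 79.8 CPM) and high dose (70.8 to 87.3 CPM) lay below naïve (102 to 131 CPM), with -0.57 and -0.54. Of these 9 libraries 5 are against their labels. Without all such libraries the values were -0.54 and -0.59, with only library 3 left of the naïve and library 12 of the high-dose group. In female ventricle low dose gave -0.65, with an overlap through 1 low-dose library at 114 CPM.

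Male ventricle had the widest naïve spread of Hif1a, with 193, 138 and 84.4 CPM in libraries 33, 34 and 53, and library 53 is against both of its labels. High dose (79.7, 95.1 and 70.1 CPM) gave -0.78 and low dose (94.6, 76.7 and 66.5 CPM) -0.84, neither called. Without the libraries against their labels Hif1a was called in high-dose (-0.95, adjusted p = 0.0143), where 19.2% of all genes were, and in Ahr-/- male ventricle (-1.13, adjusted p = 0.0257), where 4.62% were. At low dose it was -0.84, with only library 45 left of that group. With both sexes of ventricle in one fit it was called at high dose (-0.75, adjusted p = 0.0235) and at low dose (-0.75, adjusted p = 0.0317), where 13.1% and 12.9% of all genes were. In right atrium of males it was 0.01 at low and -0.03 at high dose. The fifth of genes with the lowest GC content, to which Hif1a belongs, had a median below 0 in 18 of 18 comparisons, from -0.39 to -0.04. With the GC trend removed, Hif1a was below 0 in 15 of 18 comparisons with a median of -0.37, had an unadjusted p under 0.05 in 4, and was called in none. Whether the lower Hif1a level is separate from the GC trend was not tested beyond this.

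Vegfb went the other way. Its log2 fold change was above 0 in 17 of 18 comparisons, with a median of 0.31 and a range from -0.27 to 1.04, and 4 had an unadjusted p under 0.05. These were the 3 comparisons of female ventricle, which share naïve libraries, and high-dose right atrium of males. In Ahr-/- female ventricle it had 430, 638 and 550 CPM in libraries 39, 40 and 60 (0.66, adjusted p = 0.515). In low-dose female ventricle it had 545, 819 and 588 CPM in libraries 47, 48 and 72 (0.89, adjusted p = 0.144 in edgeR and 0.0108 in DESeq2, where it was called). All 9 libraries of these 3 groups lay above the 3 naïve ones. In high-dose right atrium of males it had 391, 364 and 511 CPM against 237, 347 and 281 CPM in naïve ones (0.56), without overlap. The fifth of genes with the highest GC content, to which Vegfb belongs, had a median above 0 in all 18 comparisons, from 0.05 to 0.42. With the GC trend removed, Vegfb was above 0 in 8 and below 0 in 10 of 18 comparisons, with a median of -0.01.

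**Figure D3:**
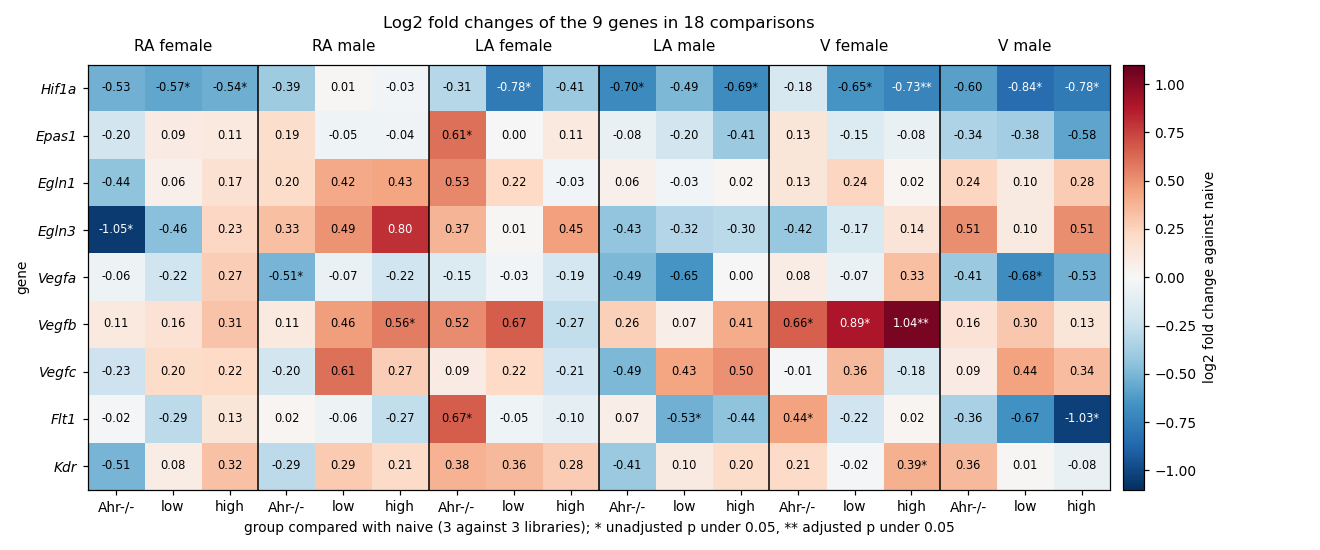
Log2 fold change of each of the 9 genes (rows) against naïve in 18 comparisons (columns, by compartment, sex and group, 3 against 3 libraries). Red is higher and blue lower than naïve; 22 of 162 values have an unadjusted p under 0.05 and 2 are called, Hif1a and Vegfb in high-dose female ventricle, with most of the Hif1a row blue and most of the Vegfb row red.

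The remaining genes had few and scattered differences, none of them called. Epas1 had 1 unadjusted p under 0.05, in Ahr-/- left atrium of females (0.61), with 676, 842 and 475 CPM in libraries 23, 24 and 58 against 381, 406 and 529 CPM in naïve libraries 19, 20 and 52. Flt1, a receptor that binds VEGF tightly and can hold it away from Kdr, showed the same libraries high, with 174, 250 and 127 CPM against 113, 92.5 and 142 CPM (0.67). Libraries 23 and 24 are among the atrial libraries that read like ventricle by Myl4. Without the libraries against their labels the log2 fold changes were 0.10 for Epas1 and 0.12 for Flt1 (unadjusted p = 0.767 and 0.739, from edgeR). With libraries 1 to 48 only, which leaves just libraries 23 and 24 of that group, 4 genes were called, Epas1 at 0.95, Flt1 at 1.05, Egln1 at 0.92, and Egln3, where 18.4% of all genes were. Both of these Ahr-/- libraries read like ventricle. Egln1 had no unadjusted p under 0.05 in 18 comparisons, and its median log2 fold change was 0.15. Egln3 had 1, in Ahr-/- right atrium of females (-1.05), at 33.6, 53.5 and 19 CPM against 47.2, 96.7 and 79 CPM in naïve libraries 3, 4 and 50, where library 4 reads like ventricle and library 50 like a male. Without the libraries against their labels it was -0.10 (unadjusted p = 0.852, from edgeR).

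Flt1 had 3 more. In high-dose male ventricle it had 97.8, 110 and 90.5 CPM in libraries 41, 42 and 65 against 284, 213 and 103 CPM in naïve libraries 33, 34 and 53, with overlap only through library 53 (-1.03, adjusted p = 0.525). Without the libraries against their labels Flt1 was called at -1.29 (adjusted p = 0.00345), as was Epas1 at -0.80 (adjusted p = 0.0279), which with Hif1a is 3 of 9 genes beside 19.2% of all genes. In low-dose left atrium of males Flt1 had 89.6, 101 and 109 CPM against 146, 156 and 132 CPM (-0.53, and -0.67 with an adjusted p of 1 without the libraries against their labels, which include 51 and 69), and in Ahr-/- female ventricle 209, 232 and 160 CPM against 127, 149 and 175 CPM (0.44). Vegfa had 2 with an unadjusted p under 0.05, in Ahr-/- right atrium of males (-0.51), at 140, 87 and 103 CPM against 147, 167 and 157 CPM, and in low-dose male ventricle (-0.68), at 153, 155 and 113 CPM against 266, 224 and 167 CPM. Without the libraries against their labels, which include 46, 53 and 71, the latter was -0.72, with only library 45 left at low dose. Vegfc had none, and its log2 fold changes ran from -0.49 to 0.61. Its level of 3.08 to 12 CPM was the lowest of the 9.

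These counts stand beside the share of all genes with an unadjusted p under 0.05. In female ventricle that share was 36.5% at high dose (3 of the 9 genes), 17.8% at low dose (2 genes) and 9.45% in Ahr-/- (2 genes), and in male ventricle 9.19% (2), 13.9% (2) and 4.23% (0). In left atrium it was 8.42% (0), 17.6% (1) and 13.7% (2) for high dose, low dose and Ahr-/- in females, and 11.4% (1), 1.6% (1) and 3.52% (1) in males. In right atrium it was 3.91% (1), 4.27% (1) and 5.51% (1) in females and 5.41% (1), 4.41% (0) and 5.12% (1) in males. The share of genes called at an adjusted p under 0.05 was 0.0216% in Ahr-/- female ventricle and 0% in the other 16 comparisons, where DESeq2 called 1 of the 9 genes in all, Vegfb in low-dose female ventricle.

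Whether the difference from naïve differed between the sexes was tested in ventricles as a sex-by-group term over 12 libraries. No gene of the 9 was called in edgeR, nor any gene of the table (0% called, and 4.53%, 0.929% and 2.74% with an unadjusted p under 0.05 for high dose, low dose and Ahr-/-). At high dose the male minus female difference was -1.04 for Flt1 (unadjusted p = 0.0256) and -0.84 for Vegfa (unadjusted p = 0.0312), each with an adjusted p of 0.952. With libraries 1 to 48 only, which leaves out 1 library of each sex and group, among them male libraries 53 and 65 against their labels, both were called, at -1.46 (adjusted p = 0.0185) and -1.14 (adjusted p = 0.0485), where 3.6% of all genes were. For Vegfb the term was -0.89 (adjusted p = 0.952) and for Hif1a -0.04 (adjusted p = 0.997), so that the call of Vegfb in females and not in males is not shown to be a difference between them. The doses were compared with each other in the same way. In female ventricle the share of the table under 0.05, unadjusted, was 4.48%, and 1 of the 9 genes passed, Vegfc, at 7.01, 6.29 and 6.8 CPM at high against 11.3, 10.2 and 8.82 CPM at low dose (-0.56, adjusted p = 0.895). The difference between doses was -0.10 for Hif1a and 0.14 for Vegfb. In male ventricle the share was 0.812% and none of the 9 passed. That comparison holds libraries 46, 65 and 71, which are against their labels, and was not fitted without all of them.

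The compartments were compared in the 18 naïve libraries, 6 each, with sex as a term, to see where in the heart the genes are expressed. As labelled, all 9 genes were lower in right atrium than in ventricle and 8 of 9 lower in left atrium, with medians of -0.33 and -0.30 against 0.02 and 0.01 over all genes, but none was called. The share of all genes called was 0.00664% for right atrium and 0% for left atrium, and 19.1% and 11.8% had an unadjusted p under 0.05, against 2 of 9 genes in each (Flt1 and Hif1a in the right, Epas1 and Flt1 in the left). The 2 atria did not differ in any gene of the 9 by an unadjusted p under 0.05, where 0.916% of all genes did.

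This comparison rests on libraries against their labels. Among the naïve libraries these are 4 and 50 of right atrium, 51 of left atrium and 53 of ventricle. Library 51 had the highest Egln3 of all 72 libraries, 195 CPM, against 14.8 and 51.1 CPM in the other left atria of naïve males. That is above the 34.5 to 136 CPM of the naïve ventricle libraries that match their labels. Naïve libraries 49, 52 and 54, which match their labels, were also the highest of their sex and compartment, at 77.8, 91.2 and 136 CPM. Libraries 50 and 53 were not. Egln1 in library 51 was 762 CPM and in library 4 730 CPM, within the 551 to 786 CPM of the naïve ventricle libraries that match their labels, and library 53 had 417 CPM. Without these 4 libraries, Egln1, Epas1, Flt1 and Hif1a were called lower in right atrium than in ventricle, at -0.81 (adjusted p = 0.0206), -0.54 (0.0228), -0.73 (0.0101) and -0.64 (0.023), where 21% of all genes were called. In left atrium Egln1 (-0.71, adjusted p = 0.0303), Epas1 (-0.46, 0.0385) and Flt1 (-0.52, 0.0432) were called, where 15.7% of all genes were. Because 1 of the rules that set libraries aside uses the level of an atrial gene, this exclusion is not independent of a difference between compartments. Leaving out only those that read as the other sex, Flt1 alone was called, in right atrium (-0.66, adjusted p = 0.039), where 5.37% of all genes were.

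With all groups in the fit and without the 17 libraries against their labels, an alternative added after the data were seen, 8 of 9 genes were called lower in each atrium than in ventricle, where 53.2% of all genes in right and 51% in left atrium were called. Compartments of the same heart are treated there as separate samples, and some atrial libraries kept there have Myl2 within the range of ventricle. Egln3 differed most, at -0.95 (SE 0.182) in right and -1.14 (SE 0.177) in left atrium, with 54 ± 17.8 (n = 18), 48 ± 21.2 (n = 18) and 101 ± 30.8 CPM (n = 19) in right atrium, left atrium and ventricles. Egln1 was next, at -0.83 and -0.86, with 454 ± 93.2, 432 ± 98 and 765 ± 112 CPM, and its right and left atrial values, 276 to 603 and 247 to 590 CPM, overlapped those of ventricles, 551 to 1030 CPM, only at their edges. Vegfb (-0.73 and -0.54) and Kdr (-0.65 and -0.59) followed, and Hif1a (-0.29 and -0.31) and Epas1 (-0.25 and -0.39) differed less. Vegfc was not called, at -0.14 and -0.21.

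**Figure D4:**
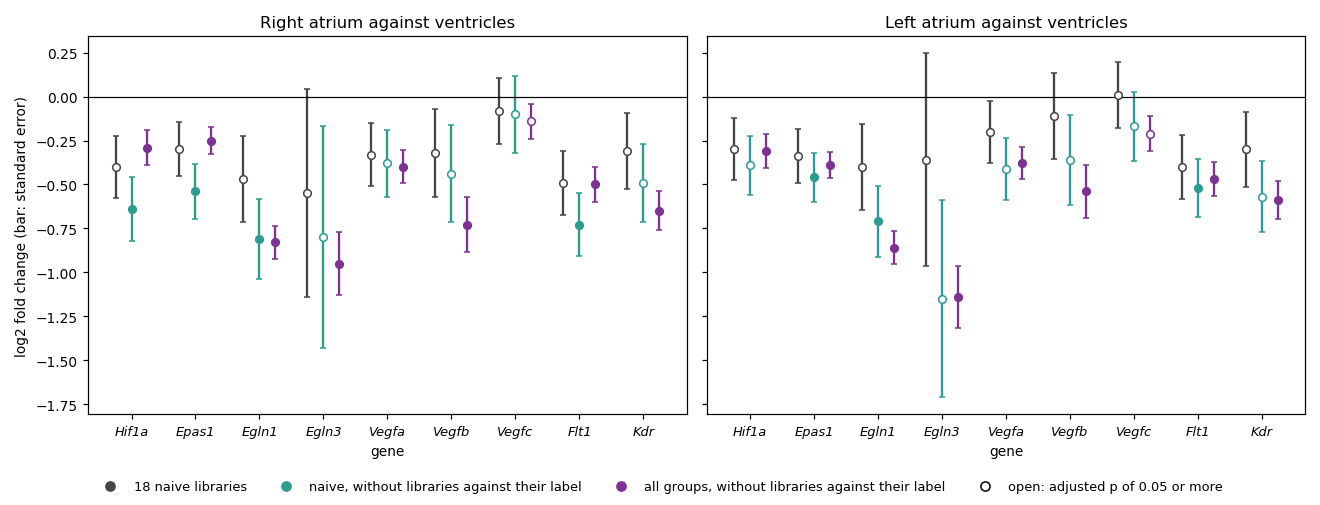
Log2 fold change of each gene in right atrium (left panel) and left atrium (right panel) against ventricles, with standard errors, in 18 naïve libraries, in the naïve libraries that match their labels, and in all groups without the 17 libraries against their labels. Filled points have an adjusted p under 0.05; none is filled with the 18 naïve libraries, and Egln3 is lowest, at -0.95 and -1.14, in all groups.

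Marker lists of cell types were summed in the same 18 naïve libraries, the 4 against their labels included. The summed endothelial markers were 1027 to 1563 CPM in naïve right atrium, 1029 to 1315 CPM in left atrium and 988 to 1234 CPM in ventricles, with overlapping ranges. Flt1 as a percentage of that sum had a median of 9.21% in right atrium, 11.3% in left atrium and 14.2% in ventricles. For Kdr these medians were 13.1%, 13.9% and 17.1%. The fibroblast markers, 6 genes, summed to medians of 2121, 2218 and 1321 CPM in that order, and the cardiomyocyte markers to 45297, 47388 and 47092 CPM. The part of the mix of cells in these differences was not tested.

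The other genes of the pathway, from lists assembled with earlier results of these data known, were set beside the 9 in high-dose female ventricle. Of 15 tested genes of the HIF system (partners, hydroxylases, the degradation complex and co-activators), 3 rose and 4 fell. Eloc, which encodes elongin C of the complex that degrades the alpha subunits, fell from 44.2 to 22.6 CPM (-0.93, adjusted p = 0.00158), and Ep300, a co-activator of HIF, from 97 to 58 CPM (-0.70, adjusted p = 0.00225). Cited4, which binds co-activators, rose from 5.22 to 14 CPM (1.46, adjusted p = 0.00175), and Hif3a, a HIF relative with inhibitory forms, from 3.04 to 8.91 CPM (1.58, adjusted p = 0.00313). These 4 stayed called with the GC trend removed, with Eloc at -0.43 (adjusted p = 0.0483). In that fit 5 of the 15 genes rose and 4 fell, where 13.8% of all genes were called. Before the removal the median of the list was -0.05, against 0.01 over all genes, of which 23.7% were called.

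Of 30 tested target genes of HIF, 7 rose and 0 fell, with a median of 0.11, a count close to the 23.7% of all genes called. Hk1, a hexokinase of glycolysis, rose from 153 to 286 CPM (0.94, adjusted p = 0.000706), Tfrc, the transferrin receptor of iron uptake, from 63 to 107 CPM (0.82, adjusted p = 0.00846), Ankrd37 from 1.52 to 4.14 CPM (1.48, adjusted p = 0.00906) and P4ha2, a collagen prolyl hydroxylase, from 33.5 to 52.1 CPM (0.67, adjusted p = 0.0098). All 4 were also called with the GC trend removed, where 6 of the list rose and 1 fell and 13.8% of all genes were called. Of 13 genes of the VEGF family and other vessel receptors, Tie1, a receptor of endothelial cells, rose (0.70, adjusted p = 0.00821), and Angpt1 (-0.62, adjusted p = 0.0278) and its receptor Tek (-0.37, adjusted p = 0.0468) fell. None of these 3 was called with the GC trend removed, nor was any gene of that list. Of 27 genes of signaling below the VEGF receptors, 6 rose and 3 fell, among them the kinases Map2k2 (0.73, adjusted p = 0.00362), Akt1 (0.62, adjusted p = 0.00539) and Mapk3 (0.70, adjusted p = 0.0105), which rose, and Pik3ca (-0.55, adjusted p = 0.00643), which fell. The share of all genes called was again 23.7%. With the GC trend removed none of these 4 kinase genes was called (adjusted p from edgeR of 0.084, 0.135, 0.103 and 0.334), and 2 others of the list rose and 0 fell. In the other 17 comparisons with naïve edgeR called 0 of the 85 to 87 genes tested from these 4 lists, and 1 to 19 of them had an unadjusted p under 0.05.

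**Figure D5:**
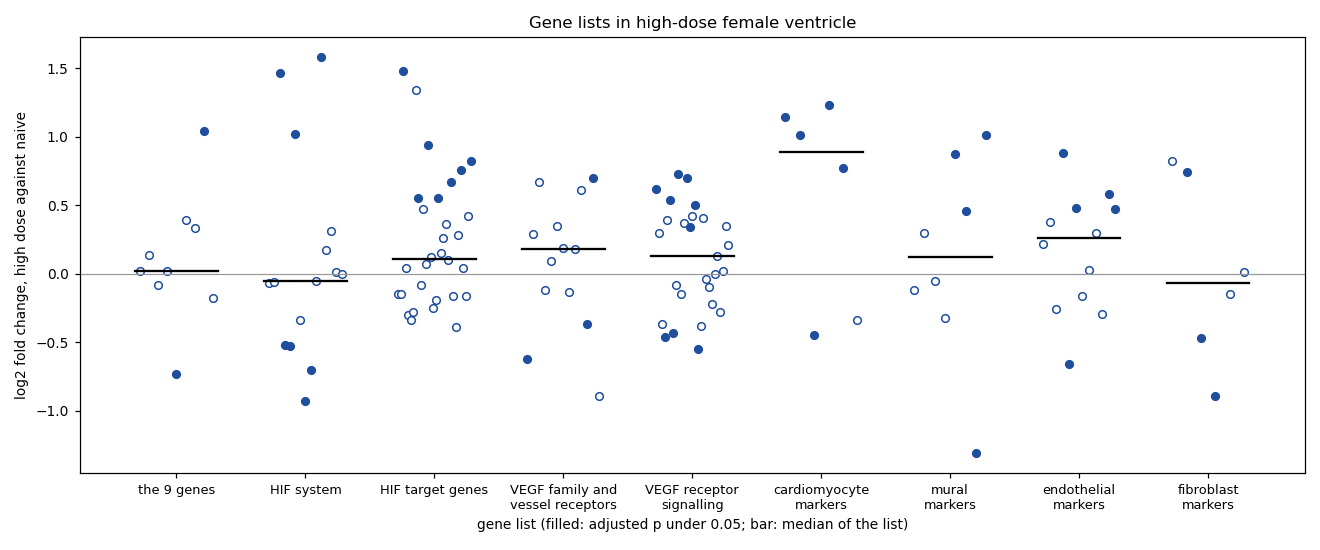
Log2 fold change in high-dose against naïve female ventricle (vertical axis) of each tested gene of the 9 and of 8 lists (horizontal axis). Filled points have an adjusted p under 0.05 and bars are list medians; HIF target genes have 7 filled points above 0 and 0 below, and cardiomyocyte markers the highest median, 0.89.

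Marker genes of cell types were also called in this comparison, where 23.7% of all genes were. Of 6 cardiomyocyte markers 4 rose and 1 fell (median 0.89), and their sum was 67606 to 108368 CPM at high dose against 44676 to 60458 CPM in naïve libraries. Of 12 endothelial markers 4 rose and 1 fell (median 0.26), among them Egfl7 (0.88), Eng (0.48) and Robo4 (0.58), which rose, and Emcn (-0.66), which fell, and their sum was 1104 to 1244 against 990 to 1234 CPM. Of 8 markers of pericytes and smooth muscle 3 rose, Tagln (1.01, adjusted p = 0.00123), Myh11 (0.87, adjusted p = 0.00249) and Pdgfrb (0.46, adjusted p = 0.0454). Another 1 fell, Rgs5, a marker of pericytes, from 367 to 145 CPM (-1.31, adjusted p = 0.00895). The sum of the 8 was 1093 to 1334 against 1314 to 1476 CPM. Of 6 fibroblast markers 1 rose and 2 fell (1087 to 1294 against 1163 to 1713 CPM), and of 4 lymphatic markers 1 fell, Prox1 (sum 54.1 to 66.7 against 64 to 106 CPM). Of 3 ventricular markers 2 rose. With the GC trend removed, where 13.8% of all genes were called, 4 cardiomyocyte markers rose and 1 fell. Of the markers of pericytes and smooth muscle 2 then rose, Tagln (0.86, adjusted p = 0.00259) and Myh11 (0.68, adjusted p = 0.00736), and 1 fell, Rgs5 (-0.96, adjusted p = 0.0164). In the same fit 1 endothelial, 1 fibroblast and 1 ventricular marker rose. Eng, Robo4, Emcn, Prox1 and Pdgfrb were then not called (adjusted p = 0.506, 0.221, 0.331, 0.155 and 0.339, from edgeR). No leukocyte, adipocyte or blood marker was called in either fit. No atrial marker was called either, with a median of -2.43 over the 3 tested. The lung markers Sftpc, Scgb1a1 and Sftpa1 were at 0 in all 6 libraries. Kdr as a percentage of the endothelial sum was 21% to 22.9% at high dose and 17% to 21.2% in naïve libraries, and Flt1 11.7% to 13.4% and 12.9% to 14.2%. The part of these cell types in the differences of Hif1a and Vegfb was not tested.

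Between compartments, without the 4 naïve libraries against their labels, the lists split in both directions. In right atrium against ventricle Cul2 of the degradation complex (-0.74, adjusted p = 0.00275), the target genes Aldoa (-0.89, adjusted p = 0.0208) and Hk2 (-0.98, adjusted p = 0.0209) of glycolysis and Dll4, a Notch ligand of endothelium (-0.59, adjusted p = 0.0124), were lower. Car9, a carbonic anhydrase (3.31, adjusted p = 0.00354), and Adm, a peptide that widens vessels (2.14, adjusted p = 0.0231), were higher. So were both Angpt2 (1.37, adjusted p = 0.000749) and Angpt1, which it opposes (1.48, adjusted p = 0.0479). In the HIF system Cited4 (1.24, adjusted p = 0.0173) and Arnt2 (1.90, adjusted p = 0.0294) were higher. Over the lists, 3 target genes were higher and 4 lower in right atrium and 1 higher and 4 lower in left atrium, of 31 tested. Of 16 genes of the HIF system 2 were higher and 1 lower in right atrium, and 1 and 1 in left. For the 13 of the VEGF family these were 2 and 1, and 1 and 1. For the 27 of signaling they were 2 and 5, and 1 and 1. Of all genes 21% and 15.7% were called in right and left atrium. With the 18 naïve libraries as labelled none of these genes was called in edgeR.

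Last, the genes whose pattern over the 72 libraries was most like that of each of the 9 were listed by Pearson's r of log2 CPM. These values describe libraries that share groups, compartments and base composition, and no test was made. Hif1a was followed most closely by Otud4 (0.88), Ppp3r1 (0.88) and Ubr3 (0.87), and Epas1 by Tsc2 (0.78), Adgrf5 (0.73) and Polr1a (0.72). Egln1 went with Coq5, Pygm and Oxct1 (0.95 each), which encode enzymes of ubiquinone synthesis, glycogen breakdown and ketone use. Egln3 went with A930016O22Rik (0.84), Ech1 (0.83) and Ppif (0.83), of which the last 2 encode mitochondrial proteins. Vegfb went with Rangrf (0.88), Ndufa12, a subunit of respiratory complex I (0.88), and Cav3, the caveolin of muscle (0.86). Vegfa went with Gpr146 (0.77), Fbrsl1 (0.74) and Abl2 (0.74), and Vegfc, the least abundant, with Asap3 (0.63), Fbxw7 (0.62) and Plcl2 (0.61). Flt1 went with Adgrf5 (0.91), an adhesion receptor of endothelium, Ptprm (0.86) and Fbxo40 (0.83), and Kdr with Arhgef15, an exchange factor of endothelium (0.88), Slc12a7 (0.85) and Itpkb (0.83). Among the 9, the closest pairs were Egln1 with Egln3 (0.83, and 0.81 after removal of group means), Epas1 with Flt1 (0.73 and 0.67) and Egln1 with Vegfb (0.71 and 0.72). Hif1a was near 0 with Egln3 (0.01), Vegfb (-0.06), Vegfc (-0.01) and Kdr (-0.03), which became -0.10, 0.03, -0.03 and -0.26 after removal of group means, and Flt1 with Kdr gave 0.48 and 0.60.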

How the data were processed

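Total RNA of 72 heart samples was made into poly-A libraries by the authors and sequenced. TopHat was the authors' aligner, mm10 the genome and coding regions the features on which reads were counted, and the deposited values are raw counts per gene (Entrez identifiers) without normalization. CASAVA 1.8 is named in the submitters' processing notes. Per the methods, reads per gene were summed with the ShortRead group of Bioconductor packages and R code of the authors. How strand was handled and which annotation release was used are not given in the sources used here. The span of 5 of the 9 genes overlaps that of a predicted gene that has no row in the table. Symbols, coordinates and promoter windows came from RefSeq (GRCm38.p6, the sequence of mm10), and lengths and GC content from GENCODE M21.

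Each comparison was fitted on its own libraries with edgeR 4.0.16 in R 4.3.3 (filterByExpr, minimum count 10 and minimum total 15, TMM, robust quasi-likelihood F test, Benjamini-Hochberg over all genes tested); SE is the log2 fold change divided by the root of F. Alternatives were DESeq2 1.42.0, other scalings, no filter, other sets of libraries, a term for library series (numbers 1 to 48 against 49 to 72), an adjusted p of 0.0001 as in the study, and each library left out in turn. Trends with GC content or transcript length (natural spline, 5 degrees of freedom, as an offset) and 2 sets of libraries for the compartments were added after the data were seen. Likeness used log2(CPM + 0.5) of genes with a mean of at least 1 CPM. The edgeR fit of 3 against 3 libraries was also run on simulated counts. These had no GC trend, no library series and no mixed tissue, so that the run cannot speak to these features. The genes named are the 9, up to 4 called genes per list and comparison by smallest adjusted p, and 3 by likeness; some called list genes between compartments were picked from these after their values were seen. The members and lists were chosen with earlier results of these data known. Libraries of a group are separate mice by the study's methods. The gavage was given to dams, and neither labels nor methods say which mice shared a litter. Litter could therefore not be modeled, and mice of 1 litter would not be independent. With 3 against 3, an exact permutation test cannot go below 0.1, so no such test is given.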

Additional observations from a re-analysis of the deposited data

How the results depend on the processing

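Of 26 counts of the 9 genes called, 1 per comparison, 16 were the same under every alternative run, and all 29 single fold changes with an unadjusted p under 0.05 kept their direction. In high-dose female ventricle 2 genes were called, and 1 with all 4 groups in one fit (Vegfb), 1 without libraries against their labels (the same fit, since none is in female ventricle), 1 with both sexes in one fit (Hif1a), 0 at an adjusted p under 0.0001 in edgeR and 0 with the GC trend removed. Leaving out 1 library gave 1 to 4 there, with 1 without naïve library 35 (Vegfb) and 4 without naïve library 54. Kdr was called beside Hif1a and Vegfb with a term for library series, with libraries 1 to 48 only and with the length trend removed. Of all genes 23.8%, 12.6% and 21.2% were called in these fits. In DESeq2 Vegfb had an adjusted p of 3.78e-07, under 0.0001, and Hif1a one of 0.000519. Where 0 were called as planned, 4 were called with libraries 1 to 48 only in Ahr-/- left atrium of females, 1 without libraries against their labels in Ahr-/- male ventricle, and 1, 2 and 3 in high-dose male ventricle with both sexes, libraries 1 to 48 only and without libraries against their labels. In low-dose female ventricle 1 was called by DESeq2 and 1 with both sexes, in low-dose male ventricle 1 with both sexes, and in Ahr-/- female ventricle 0 to 1 with a library left out (Vegfb without Ahr-/- library 39). At each dose the fit with both sexes is the same for females and males, so its call of Hif1a is not a separate result for each sex. Male libraries against their labels are in it, 53 and 65 at high and 46, 53 and 71 at low dose. The sex term at high dose called 2 with libraries 1 to 48 only. Right atrium against ventricle gave 4 without libraries against their labels, 6 with all 72 libraries, 8 with all groups without libraries against their labels, 1 without libraries against their labelled sex and 0 to 1 with a library left out (Flt1 without ventricle library 53). Left atrium gave 3, 3 and 8 under the first 3 of these settings. Beside these counts, the share of all genes called was 4.96% with all 4 groups in one fit, 13.1% with both sexes at high and 12.9% at low dose, 10.9% without library 35, 19.3% without library 54, 18.4% in left atrium and 15.9% in high-dose male ventricle with libraries 1 to 48, 4.62% and 19.2% in Ahr-/- and high-dose male ventricle without libraries against their labels, 3.62% with DESeq2 at low dose, 7.11% without library 39, 3.6% for the sex term, and 31.8% for right and 18.9% for left atrium with all 72 libraries, 7.13% without library 53 and 5.37% without libraries against their labelled sex. The cause of these changes was not tested. Scaling by library size only moved the median of all genes in high-dose female ventricle to -0.17 (log2) and turned 1713 higher and 1600 lower genes into 609 and 1771; with that scaling Hif1a was -0.91 and Vegfb 0.90. All genes called there ranged from 719 with all 4 groups in one fit to 3917 without high-dose library 44, against 3313. With 3 libraries a group, a difference that misses the threshold does not show that levels are alike. No paired analysis was possible because every library has its own number and the labels do not link the compartments of a heart.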
